A study of Rattus norvegicus with 6 samples.

Results

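The genes described here are 10 markers of microglia and macrophages, read in cultures from which these cells should have been removed. They were chosen by symbol (Aif1, Cd68, Csf1r, Cx3cr1, Itgam, Tyrobp, Ctss, C1qa, C1qb and Gpr84), and every probe set that the platform annotation gives to one of these symbols alone was taken. All 10 were measured, by 11 probe sets, among 14217 genes with such a probe set. Aif1 has 2 probe sets and each other marker 1. For Aif1 the probe set with the higher mean (1369489_at) stands for the gene in counts and medians, and the other (1368558_s_at) is given beside it.

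The arrays hold RNA of rat retinal ganglion cell (RGC) neurons, taken from pups at postnatal day 6 and kept for 12 days in culture. The methods name pups of both sexes, without the make-up of each culture. The 3 conditions had 2 arrays each: Gpc4, a His-tagged soluble form of the astrocyte-secreted proteoglycan glypican 4 purified from HEK293 cell medium and applied for 12 hours; TSP1, recombinant mouse thrombospondin 1 applied for 12 hours; and Untreated, with no added protein and no vehicle protein. Retinal suspensions were passed over lectin-coated dishes, which hold back microglia and fibroblasts, and RGCs were then picked on dishes coated with the antibody T11D7. All conditions shared a growth medium with BDNF, CNTF and forskolin and received FUDR against dividing fibroblasts. The experiment was done on 2 separate cultures, with 2 wells pooled per condition, and the arrays carry replicate numbers 1 and 2, called culture 1 and culture 2 here. No label ties a number to a culture outright, but same-numbered arrays of different conditions deviated together from their group means, with correlations across probe sets of 0.29 to 0.37. With 1 array per condition and culture, the spread within a condition is the spread between cultures.

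Array medians lay between 5.96 and 5.99 on the log2 scale of the deposited values. Markers of the labelled cell type were high: 10 measured RGC genes, among them Sncg, Nefl, Thy1 and Rbpms, had log2 values between 7.74 and 14.03 on every array. An X-linked and a Y-linked transcript also split the arrays by number. Xist had log2 values of 9.12, 9.15 and 9.32 in culture 2 with Gpc4, with TSP1 and untreated, against 5.36, 5.19 and 5.46 in culture 1, and Eif2s3y had 5.79, 5.32 and 5.65 in culture 2, against 8.93, 9.25 and 8.65 in culture 1. These transcripts separated culture 2 and culture 1 in all 3 conditions, and their part in the results was not tested. A difference in the sex of the pups between the cultures cannot be told apart from any other difference between them.

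Microglia are the resident macrophages of the brain and retina. They depend on signals through the receptor Csf1r for survival, sense neurons through receptors such as Cx3cr1, and clear debris and synapses with the help of complement and a lysosome rich in cathepsins. Most of the genes that mark them are also expressed by macrophages elsewhere, so the 10 markers do not separate microglia from other macrophages. In a bulk RNA sample, fewer cells of a type and less RNA per cell cannot be told apart.

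Many macrophage genes are read by the ETS factor PU.1. GGAAGT, called the core here, is 1 form of its binding site, and forms without GGAAGT were not searched. To show the promoters of markers that moved together and of one that did not, RefSeq promoters (rat assembly GRCr8, 250 bases before to 50 bases after the gene start) were searched for GGAAGT on both strands (reverse complement ACTTCC). A promoter was listed for 8 of the 10 markers. The core stood in 6 of these 8 (C1qa, C1qb, Cd68, Ctss, Cx3cr1 and Gpr84), and in 22.6% of all 33469 listed rat promoters. The longer GAGGAAGT (reverse complement ACTTCCTC), which contains the first motif, stood in 1 of 8, that of Ctss, and in 2.42% of all. The 4 promoters below are those of the complement genes C1qa (chr5:154419884-154420183, minus strand) and C1qb (chr5:154407778-154408077, minus strand), which lie in the same stretch of chromosome 5, of Ctss (chr2:185775146-185775445, plus strand) and of Gpr84 (chr7:136324524-136324823, minus strand). Each is written 5′ to 3′ on the strand of its gene, with the core in capitals on whichever strand it was found.
C1qa: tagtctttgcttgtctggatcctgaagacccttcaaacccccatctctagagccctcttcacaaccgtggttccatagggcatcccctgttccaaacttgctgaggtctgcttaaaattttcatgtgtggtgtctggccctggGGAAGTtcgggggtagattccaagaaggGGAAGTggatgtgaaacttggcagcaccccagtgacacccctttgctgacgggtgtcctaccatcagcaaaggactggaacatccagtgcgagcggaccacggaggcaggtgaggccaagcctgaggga
C1qb: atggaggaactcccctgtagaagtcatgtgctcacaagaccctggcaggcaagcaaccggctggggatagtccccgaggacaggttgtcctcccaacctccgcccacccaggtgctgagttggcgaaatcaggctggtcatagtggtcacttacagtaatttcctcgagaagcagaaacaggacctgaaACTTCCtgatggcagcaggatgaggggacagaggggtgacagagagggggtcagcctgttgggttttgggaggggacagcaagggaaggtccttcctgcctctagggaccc
Ctss: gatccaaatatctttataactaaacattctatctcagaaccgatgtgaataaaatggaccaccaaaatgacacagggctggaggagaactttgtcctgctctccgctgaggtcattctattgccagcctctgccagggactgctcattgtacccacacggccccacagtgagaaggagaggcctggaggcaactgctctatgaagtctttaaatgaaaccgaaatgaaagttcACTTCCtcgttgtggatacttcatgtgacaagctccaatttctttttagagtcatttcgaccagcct
Gpr84: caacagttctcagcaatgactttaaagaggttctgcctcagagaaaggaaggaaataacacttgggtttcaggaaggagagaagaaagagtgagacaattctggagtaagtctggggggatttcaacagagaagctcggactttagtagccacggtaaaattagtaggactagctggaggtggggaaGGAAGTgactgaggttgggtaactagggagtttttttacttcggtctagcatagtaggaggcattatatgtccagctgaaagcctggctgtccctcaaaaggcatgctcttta
The core began 107 and 79 bases before the start in C1qa, 61 before it in C1qb, 17 before it in Ctss and 63 before it in Gpr84. Gpr84 holds it as C1qa, C1qb and Ctss do, although the level of Gpr84 did not follow theirs. A match of these letters is a description of the sequence only.

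The markers were dim. As a guide to the signal of genes these cells should not transcribe, 23 genes restricted to other tissues had log2 values with a median of 4.21 and a 95th percentile of 6.00. In culture 2, 1 of the 10 markers had a mean above that percentile (Cx3cr1), against 6 in culture 1. A second guide, 6 olfactory receptor genes, was lower, with a median of 4.13 and a 95th percentile of 5.07. Culture 2 means of Cx3cr1 (6.08), Ctss (5.97), Aif1 (5.76), C1qa (5.58) and Tyrobp (5.26) lay above 5.07, and those of the other markers did not. How many markers clear background thus depends on the guide. Csf1r, Itgam, Gpr84 and Cd68 were below the array median on all 6 arrays. The mean log2 value over the 10 markers was 5.24 with Gpc4, 5.25 with TSP1 and 5.04 untreated in culture 2, against 5.60, 6.00 and 5.74 in culture 1. Levels of different probe sets are not compared with each other, because probes differ in brightness, and a signal near background understates a difference.

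**Figure D1:**
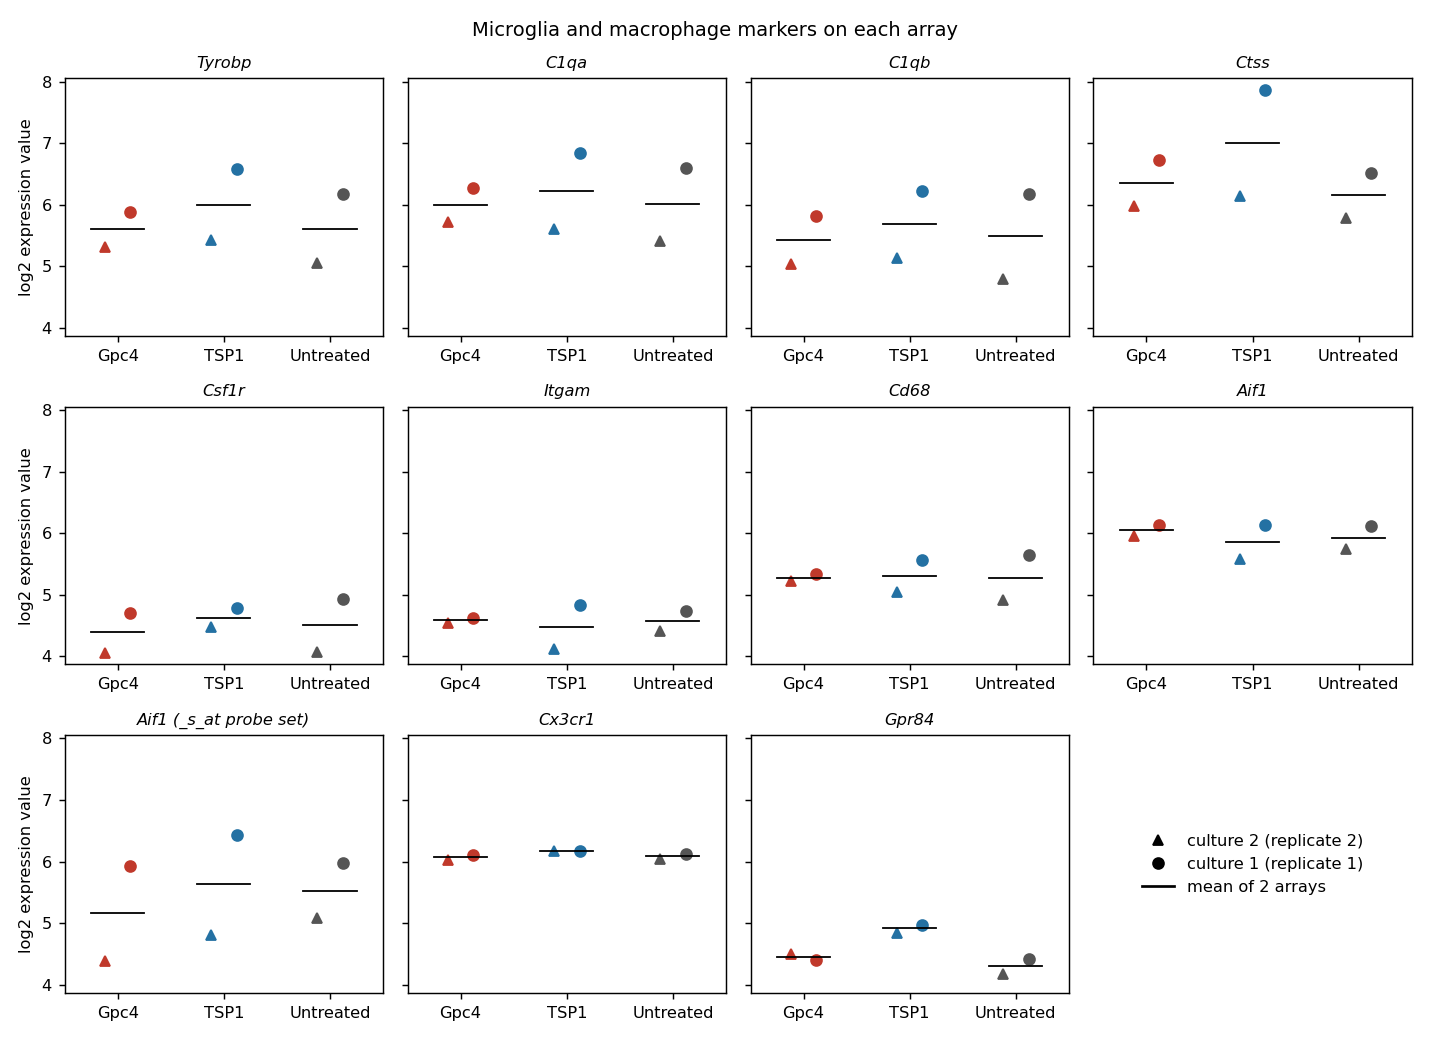
Log2 expression values of the 11 marker probe sets on each of the 6 arrays, by condition (Gpc4, TSP1, Untreated). Triangles are culture 2, circles are culture 1 and the short line is the mean of both; the triangle lies below the circle in all 3 conditions for C1qa, C1qb, Tyrobp, Ctss, Csf1r, Cd68, Itgam and both Aif1 probe sets, but not for Cx3cr1 and Gpr84.

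The first comparison sets culture 2 against culture 1. Culture 2 had lower C1qa, C1qb and Tyrobp, the 3 markers past the threshold (limma, a term for treatment and one for culture, Benjamini-Hochberg adjusted p under 0.05 over 31042 probe sets), and no marker was higher. Over all probe sets, 0.129% were called lower and 0.432% higher. In 8 of the 10 markers all 3 arrays of culture 2 lay below all 3 of culture 1, which was so in 7.87% of all probe sets. In 4 of the 10 (C1qa, C1qb, Tyrobp and Ctss) culture 2 was lower by at least 0.5 in each of the 3 conditions, which was so in 0.0902% of all probe sets. The median difference of the 10 markers, culture 2 minus culture 1, was -0.53 on the log2 scale, against -0.01 over all probe sets. The 3 arrays of a culture come from the same cell preparation, so these p-values compare 2 preparations and not 2 kinds of preparation. Leaving out any 1 of the 6 arrays left 2 culture pairs, and in those fits 0 markers and 0 probe sets in all passed the threshold with limma. With all 6 arrays 8 of the 10 markers had an unadjusted p under 0.05, against 11.3% of all probe sets; with 1 left out 5 to 8 did, and C1qa, C1qb and Tyrobp differed by -0.84 to -1.25.

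Of the markers, the complement genes are described first. C1qa and C1qb encode chains of C1q, which starts the classical complement cascade and tags synapses for removal by microglia. C1qb had log2 values of 5.04 with Gpc4, 5.13 with TSP1 and 4.79 untreated in culture 2, against 5.81, 6.23 and 6.18 in culture 1. The means were 4.99 ± 0.18 in culture 2 and 6.07 ± 0.23 in culture 1 (SD, n = 3 each), a difference of -1.09 (SE 0.11, 95% interval -1.35 to -0.82, limma adjusted p = 0.0066). Every culture 2 array was lower, and the gap was widest in the untreated pair (-1.39). C1qa had 5.72 with Gpc4, 5.60 with TSP1 and 5.41 untreated in culture 2, against 6.27, 6.84 and 6.60 in culture 1. Its difference was -0.99 (SE 0.13, 95% interval -1.30 to -0.69, limma adjusted p = 0.0218). Here too the ranges did not overlap, and the Gpc4 pair had the smallest gap (-0.55).

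Tyrobp encodes DAP12, the adaptor through which Trem2 and other surface receptors signal. Its log2 values were 5.32 with Gpc4, 5.42 with TSP1 and 5.05 untreated in culture 2, against 5.89, 6.58 and 6.17 in culture 1. The difference was -0.95 (SE 0.12, 95% interval -1.23 to -0.67, limma adjusted p = 0.0150). In a fit without a term for treatment, added after the data had been seen, its adjusted p was 0.0931 and the count of markers past the threshold fell to 2. The cultures did not overlap in Tyrobp, and of its gaps of -0.57 (Gpc4), -1.16 (TSP1) and -1.12 (untreated) the one between the Gpc4 arrays was the smallest, as for C1qa and C1qb.

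The lysosomal markers were lower in every pair but did not pass the threshold. Ctss, the lysosomal protease cathepsin S, had log2 values of 5.98 with Gpc4, 6.14 with TSP1 and 5.79 untreated in culture 2, against 6.72, 7.86 and 6.51 in culture 1. The means were 5.97 ± 0.18 in culture 2 and 7.03 ± 0.73 in culture 1 (SD, n = 3 each), and the difference of -1.06 (SE 0.18, 95% interval -1.48 to -0.64) had a limma adjusted p of 0.0664. The TSP1 array of culture 1 stood above the other 5 arrays. Ctss passed with a trended variance (adjusted p = 0.0135), among probe sets with a mean of at least 6 (0.0362) and with gene means (0.0455). Cd68, a lysosomal membrane glycoprotein used to mark phagocytes, had 5.23 with Gpc4, 5.05 with TSP1 and 4.91 untreated in culture 2, against 5.33, 5.56 and 5.64 in culture 1. That difference was -0.45 (SE 0.12, limma adjusted p = 0.234), with a gap of only -0.10 between the Gpc4 arrays.

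The surface receptors split. Csf1r, the receptor for colony stimulating factor 1 and interleukin 34, had log2 values of 4.06 with Gpc4, 4.47 with TSP1 and 4.08 untreated in culture 2, against 4.71, 4.78 and 4.94 in culture 1. Its difference was -0.61 (SE 0.11, 95% interval -0.85 to -0.36, limma adjusted p = 0.0753), not past the threshold here but past it with a trended variance (adjusted p = 0.0349) and with gene means (0.0442). Itgam, the CD11b chain of complement receptor 3, had 4.55 with Gpc4, 4.12 with TSP1 and 4.42 untreated in culture 2, against 4.62, 4.83 and 4.73 in culture 1. The 3 arrays of culture 2 were the lowest for both genes, although for Itgam the difference of -0.36 (SE 0.12) had a limma adjusted p of 0.324.

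Cx3cr1 and Gpr84 did not separate the cultures. Cx3cr1, the receptor for the neuronal chemokine fractalkine, had log2 values of 6.03 with Gpc4, 6.17 with TSP1 and 6.04 untreated in culture 2, against 6.11, 6.17 and 6.13 in culture 1. It spanned only 0.14 over the 6 arrays, and its difference was -0.06 (SE 0.07, limma adjusted p = 0.809). Gpr84, a receptor for medium-chain fatty acids that rises in activated microglia, had 4.50 with Gpc4, 4.85 with TSP1 and 4.18 untreated in culture 2, against 4.41, 4.98 and 4.42 in culture 1. Here the culture difference was -0.09 (SE 0.08, limma adjusted p = 0.720). Cx3cr1 lay near the 95th percentile of the tissue-restricted genes and Gpr84 between their median and that percentile. By this guide neither probe set was well clear of background. C1qb, Tyrobp and Csf1r separated the cultures and were not well clear of it by this guide either. By the guide of olfactory receptor genes (95th percentile 5.07), C1qb, Tyrobp and Cx3cr1 lay above that percentile and Csf1r and Gpr84 below it. Means over the 6 arrays were 5.53 for C1qb, 5.74 for Tyrobp, 4.51 for Csf1r, 6.11 for Cx3cr1 and 4.56 for Gpr84.

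Aif1, which encodes the actin-bundling protein IBA1, was read differently by its 2 probe sets. The brighter probe set had log2 values of 5.96 with Gpc4, 5.58 with TSP1 and 5.74 untreated in culture 2, against 6.14, 6.14 and 6.12 in culture 1, a difference of -0.37 (SE 0.09, limma adjusted p = 0.190). The other had 4.39 with Gpc4, 4.81 with TSP1 and 5.08 untreated in culture 2, against 5.93, 6.44 and 5.98 in culture 1. There the difference was -1.36 (SE 0.14, 95% interval -1.67 to -1.04, limma adjusted p = 0.0056), the largest among the 11 probe sets. Both probe sets separated the cultures in the same direction, and counting the second in place of the first brought the markers past the threshold to 4. The mean of both differed by -0.86 (limma adjusted p = 0.0047).

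**Figure D2:**
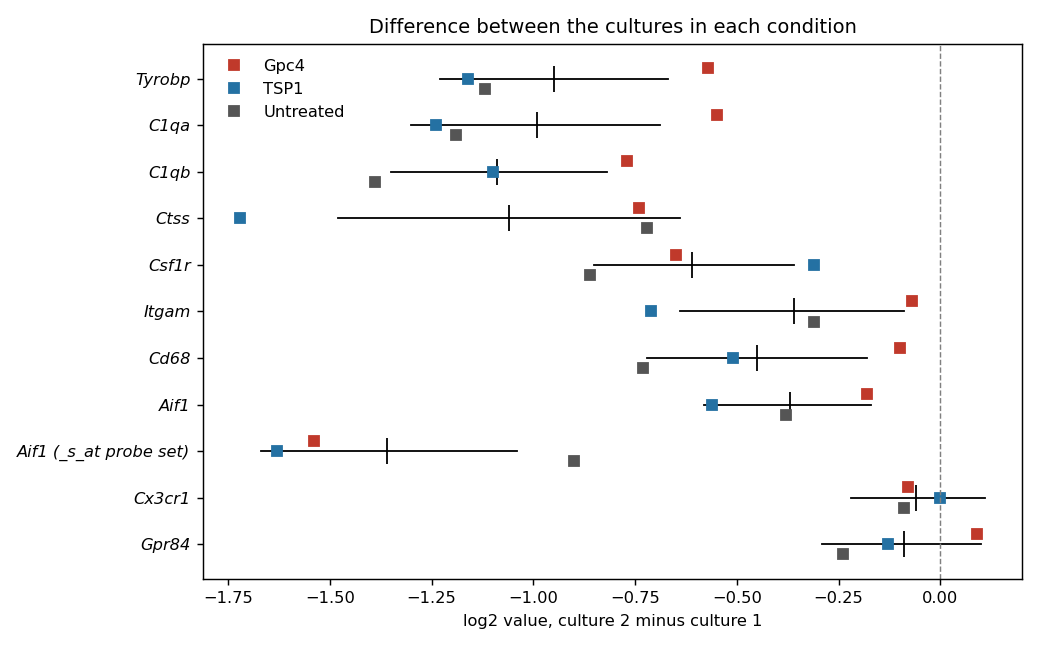
Difference of the log2 values, culture 2 minus culture 1, for the 11 marker probe sets: points are the differences within Gpc4, TSP1 and Untreated, the tick is the limma mean and the line its 95% interval. C1qa, C1qb, Tyrobp and the second Aif1 probe set (1368558_s_at) pass the adjusted threshold of 0.05, while the intervals of Cx3cr1 and Gpr84 include 0.

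The next comparisons ask whether Gpc4 or TSP1 changed the markers. With limma on all 6 arrays and 1 mean per condition, 0 of 10 markers passed an adjusted p of 0.05 in any of the 3 comparisons. At an unadjusted p under 0.05 the counts were 0 for Gpc4 against Untreated, 1 for TSP1 against Untreated and 1 for Gpc4 against TSP1, where 6.88%, 4.4% and 4.51% of all probe sets had such a p. Of all probe sets, 0.0838% were called for Gpc4 against Untreated, 0% for TSP1 against Untreated and 0.0612% for Gpc4 against TSP1. With the replicate number as a block the counts of markers were 0 in each comparison too, with 0, 3 and 3 at an unadjusted p under 0.05. With the block 9.44%, 6.69% and 6.62% of all probe sets had such a p, and 0.206%, 0.0129% and 0.258% were called. The first 2 comparisons share the Untreated arrays, and the third shares arrays with both.

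Gpc4 and Untreated arrays had nearly the same levels of the markers on average. The median difference of the 10 markers was 0.00, with single markers between -0.12 (Csf1r) and 0.20 (Ctss). For 6 of the 10 the sign was opposite in the 2 cultures and for 4 it was the same. The share of all probe sets with opposite signs was not counted. C1qa, C1qb, Tyrobp and Cd68 were higher with Gpc4 than untreated in culture 2, by 0.31, 0.25, 0.27 and 0.32, and differed by -0.33, -0.37, -0.28 and -0.31 in culture 1. Each of these rests on 1 array per condition, and these genes went together over the arrays (Pearson r of 0.91 to 0.99), so they are not separate observations. For C1qa the means were 6.00 ± 0.39 with Gpc4 and 6.01 ± 0.84 untreated, and for C1qb 5.43 ± 0.54 with Gpc4 and 5.49 ± 0.98 untreated (SD, n = 2 each). Without a block these differences had 95% intervals of -1.10 to 1.08 for C1qa and -1.23 to 1.11 for C1qb, which count the difference between cultures as error. With the replicate block the intervals were -0.39 to 0.37 for C1qa and -0.39 to 0.27 for C1qb.

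Gpr84 had the smallest unadjusted p of the markers in both comparisons with TSP1. It averaged 4.92 ± 0.09 with TSP1 and 4.30 ± 0.17 untreated (SD, n = 2 each), and was higher with TSP1 in both cultures, by 0.67 in culture 2 and 0.56 in culture 1. The difference of 0.61 (SE 0.11, 95% interval 0.36 to 0.87) had an unadjusted p of 0.00062 by limma but an adjusted p of 0.985, and 0.377 with the replicate block, so it does not pass. Against TSP1, Gpc4 arrays were lower in Gpr84, at 4.46 ± 0.06 with Gpc4 and 4.92 ± 0.09 with TSP1, a difference of -0.46 (SE 0.11, limma adjusted p = 0.623). The TSP1 values lay above all others in both cultures. Cx3cr1 also had TSP1 values above all others, at 6.17 and 6.17, but by at most 0.14.

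Ctss had the largest difference of any marker with TSP1, and it was unequal in the 2 cultures. It had 6.14 and 7.86 with TSP1 in cultures 2 and 1, against 5.79 and 6.51 untreated, a mean difference of 0.85 (SE 0.52, 95% interval -0.36 to 2.06, limma adjusted p = 0.985, and 0.651 with the replicate block). The difference was 0.35 in culture 2 and 1.35 in culture 1. With the block its 95% interval was 0.33 to 1.37. The fit without the culture 1 TSP1 array gave -0.01, but it sets a culture 2 array against untreated arrays of both cultures and so holds the culture difference. Tyrobp was higher with TSP1 by a like amount in both cultures, 0.37 in culture 2 and 0.41 in culture 1, but its groups overlapped because the cultures differed by more (limma adjusted p = 0.721 with the replicate block). The median over the 10 markers was 0.16 for TSP1 minus Untreated, with a range of -0.10 to 0.85, and 6 of 10 had the same sign in both cultures. For Gpc4 minus TSP1 it was -0.23, with a range of -0.65 to 0.19, and again 6 of 10 had the same sign in both.

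**Figure D3:**
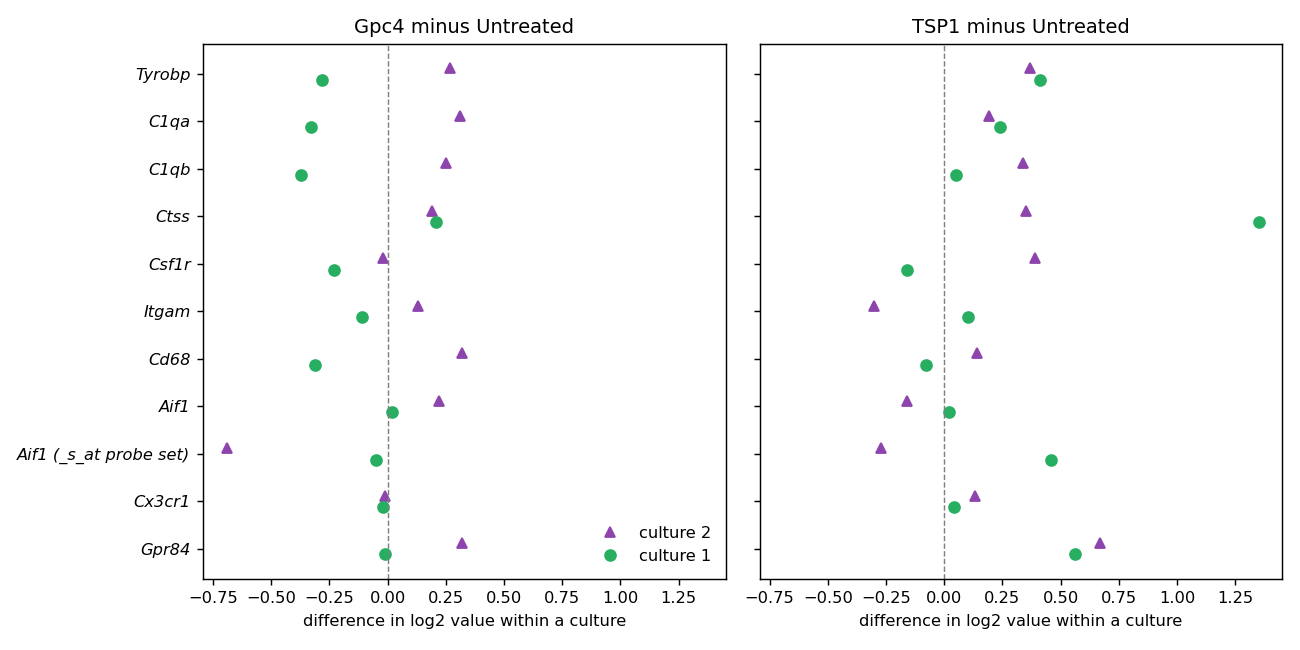
Differences of the log2 values for Gpc4 minus Untreated and TSP1 minus Untreated for the 11 marker probe sets, with culture 2 and culture 1 as separate points. Gpr84 is higher with TSP1 than untreated by 0.67 in culture 2 and 0.56 in culture 1. C1qa, C1qb, Tyrobp and Cd68 have opposite signs in the 2 cultures for Gpc4 minus Untreated.

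A wider list of microglia and macrophage genes held 93 symbols, of which 80 were measured. Culture 2 had 9 of the 80 lower and 4 higher past the threshold, against 0.129% lower and 0.432% higher of all probe sets, and 67 did not pass. An unadjusted p under 0.05 was found for 40, against 11.3% of all probe sets, and the median difference was -0.09. By role, 2 of 18 receptors and their partners, 2 of 8 cytoplasmic proteins of blood cells, 2 of 5 complement genes, 2 of 5 border macrophage genes and 1 of 19 activation genes were lower. Higher were 1 of 6 identity genes, 2 of 15 lysosomal genes and 1 of 19 activation genes, and of 4 transcription factors none passed. The complement genes did not move together: C1r, C1s and Serping1 differed by 0.34, 0.62 and 0.37 (unadjusted p = 0.0058, 0.0015 and 0.0138 by limma, none past the adjusted threshold), and the median of the 5 was 0.34. The 9 lower genes were Fcer1g, C1qc, C3, Rac2, Pf4, Mrc1, Itgb2, Plek and Ccl4. Fcer1g, the adaptor that pairs with Fc receptors, had log2 values of 7.31 with Gpc4, 7.51 with TSP1 and 7.35 untreated in culture 2, against 8.26, 8.71 and 8.59 in culture 1 (difference -1.13, SE 0.08, limma adjusted p = 0.0020). All 6 of its values were above the array median, so this gene shows the pattern at a signal clear of background. C1qc, the partner chain of C1qa and C1qb, had the largest difference of the list, -1.32 (SE 0.13, limma adjusted p = 0.0047), with 5.42, 5.05 and 5.34 in culture 2, against 6.37, 6.71 and 6.69 in culture 1. All 3 C1q chains were thus lower in culture 2.

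Others of the 9 have related roles. Itgb2, the partner chain of Itgam in complement receptor 3, differed by -0.60 (adjusted p = 0.0329), and C3, whose fragments that receptor binds, by -0.95 (adjusted p = 0.0034). Rac2, a GTPase of blood cells, differed by -0.90 (adjusted p = 0.0027), and Plek, a platelet and leukocyte signalling protein, by -0.54. Mrc1 and Pf4, which mark macrophages of brain borders more than microglia, differed by -0.75 and -0.99, and the chemokine Ccl4 by -0.50. These values are limma differences, culture 2 minus culture 1.

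The 4 higher genes went the other way in every condition. Olfml3, a secreted glycoprotein listed as a microglia identity gene, had log2 values of 7.88 with Gpc4, 6.43 with TSP1 and 7.38 untreated in culture 2, against 6.60, 5.58 and 6.27 in culture 1 (difference 1.08, limma adjusted p = 0.0036). Ctsc, the lysosomal protease cathepsin C, differed by 0.98 (adjusted p = 0.0025), Ctsh, cathepsin H, by 0.57 and the chemokine Ccl2 by 0.85. Olfml3 and Ctsc are not restricted to microglia. Among the identity genes, P2ry12 and Gpr34 had means of 3.80 and 3.03 over the 6 arrays, below the median of the tissue-restricted genes, and Tmem119 had 5.71 and Trem2 5.81. The identity genes did not follow the markers between the cultures: 0 of 6 were lower past the threshold, and their median difference was 0.06. Tmem119 differed by 0.32, Trem2 by -0.10, Sall1 by 0.09, P2ry12 by 0.04 and Gpr34 by -0.06. P2ry12 and Gpr34 had little signal that could fall, and Tmem119 and Trem2 lay below the 95th percentile of the tissue-restricted genes (6.00). These values therefore do not show that microglia identity genes held their level.

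No gene of the wider list passed in a treatment comparison. Without a block, 1, 7 and 7 of the 80 had an unadjusted p under 0.05 for Gpc4 against Untreated, TSP1 against Untreated and Gpc4 against TSP1, against 6.88%, 4.4% and 4.51% of all probe sets. The largest differences were Il6 (0.56), Ptgs2 (0.50) and Ctsc (0.44) for Gpc4 minus Untreated, and Olfml3 (-0.82), Ctsc (-0.77) and the complement protease C1s (-0.76) for TSP1 minus Untreated. For Gpc4 minus TSP1 they were Olfml3 (1.24), Ctsc (1.21) and the glycoprotein Gpnmb (-0.84). With the replicate block, Olfml3 and Ctsc passed as higher with Gpc4 than with TSP1 (limma adjusted p = 0.0086 and 0.0040), and no other gene of the wider list passed in any comparison.

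Ligands made by neurons were measured as well, since microglia read them. None of 6 passed in any comparison. Csf1, a ligand of Csf1r, differed between culture 2 and culture 1 by -0.23, and Cx3cl1, the fractalkine bound by Cx3cr1, by -0.22, both short of the threshold. Cd200 and Cd47, neuronal surface proteins that restrain macrophages, had mean log2 values of 11.74 and 10.80 over the 6 arrays.

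Markers of other cells were set beside these values. Fibroblast markers moved against the microglia markers: 3 of 8 were higher in culture 2 (Lum 1.79, Dcn 1.54 and Postn 0.71; limma adjusted p = 0.0031, 0.0102 and 0.0061), and their median difference was 0.80. Their mean log2 value was 6.92 with Gpc4, 6.45 with TSP1 and 7.17 untreated in culture 2, against 6.25, 5.74 and 6.00 in culture 1. Lum and Dcn, proteoglycans of connective tissue, also had lower values with TSP1 than with Gpc4 in both cultures, by limma adjusted p of 0.0086 and 0.0262 with the replicate block. Postn, a matrix protein, was higher with TSP1 than untreated (0.99) and lower with Gpc4 than with TSP1 (-0.87), with adjusted p of 0.0402 and 0.0129 with the block. Without the block 0 of 8 fibroblast markers passed in any treatment comparison (adjusted p = 0.995 for Lum, Dcn and Postn between Gpc4 and TSP1, and 0.985 for Postn between TSP1 and Untreated). The part of fibroblast markers in the results was not tested. In the lists for RGCs, astrocytes and Müller glia, endothelium, oligodendrocyte lineage, other retinal cells, and lymphocytes and neutrophils, 0 genes passed between the cultures by limma, with 1, 1, 3, 1, 1 and 0 at an unadjusted p under 0.05 and medians between -0.12 and -0.02.

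**Figure D4:**
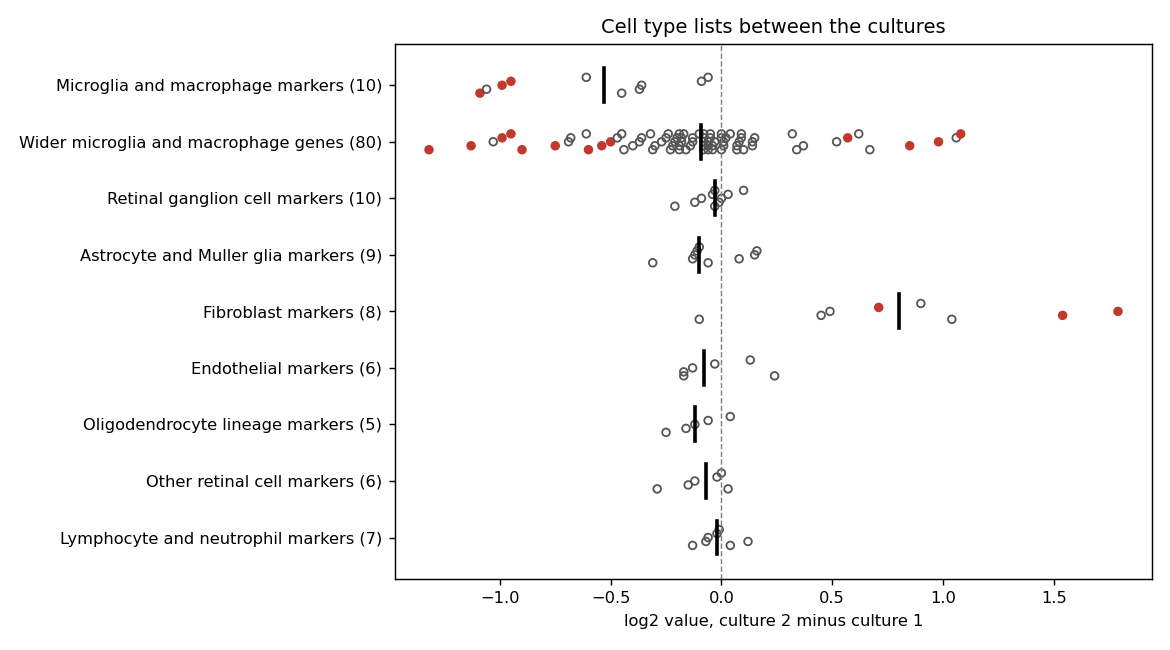
Difference of the log2 values, culture 2 minus culture 1, for each gene of the marker lists (points, filled red where the limma adjusted p is under 0.05) with the median of each list as a bar. The 10 microglia and macrophage markers have a median of -0.53 and the 8 fibroblast markers one of 0.80, with the other lists of cell types near 0.

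The markers differed in which genes they resembled over the 6 arrays. These correlations are descriptions: the 6 arrays share 2 cultures, and each gene was compared with 1503 probe sets that span at least 0.58 on the log2 scale. C1qa, C1qb and Tyrobp went together, with Pearson r of 0.99 for C1qa with both others and 0.98 for Tyrobp with C1qb. Genes most like Tyrobp were Apobec1, Tlr7 and Laptm5, those most like C1qa were Inpp5d, Apobec1 and C1qb, and those most like C1qb were Xrn1, Fcer1g and C1qa, with r of at least 0.99 for each. Ctss went with Cd14, Lyz2 and Mpeg1 (r = 0.98 each), a lipopolysaccharide receptor, lysozyme and a pore-forming protein of macrophages. Lyz2 shared with Ctss a culture 1 TSP1 array above the rest, at 9.28.

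The other markers had other neighbours. For Csf1r these were Slc13a3 (r = 0.97), Ncr3 (0.96) and Fcrl2 (0.94), for Itgam C10h5orf47 (0.99), Krt20 (0.99) and Slc14a2 (0.97), and for Cd68 Col9a2 (0.99), Pilrb2l4 (0.99) and Fam168a (0.97). Gpr84 was closest to Sfrp4, Pi4k2a and Pmepa1 (r = 0.93 each), none of which was among the nearest genes of another marker. Cx3cr1 and the brighter Aif1 probe set, which stands for the gene, spanned less than 0.58 and were not entered. The second Aif1 probe set (1368558_s_at) spanned 2.05 but was not entered either.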

How the data were processed

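RNA of 6 samples of cultured RGCs was hybridised to Affymetrix rat arrays. The authors used Affymetrix Expression Console (its version is not given in the sources used here), then deposited log2 values made by RMA (background correction, a normalization across arrays, one summary per probe set), rounded to 2 decimals. RMA raises dim probe sets toward a common background, which compresses their differences. For 1999 probe sets, log2 of a linear table of the study lay within 0.005 of them. No filter or pseudocount was applied, and no column was left out.

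The test was limma 3.58.1, run in R 4.3.3 with lmFit and eBayes (31042 probe sets, Benjamini-Hochberg adjusted p under 0.05). The treatment fit had 1 mean per group and 3 residual degrees of freedom, and the culture fit had terms for treatment and replicate number and 2. Intervals are limma's, at 95%. With 2 arrays per group, p-values of the treatment fit without a block set a difference against the spread between these 2 cultures. Those of the culture fit and of the replicate block set it against what remains after treatment and culture are taken out. The main fits were tested on simulated data with independent noise on each array. Those data held no shared culture effect and the replicate block was not run on them, so they do not check the p-values where a culture is shared. Replicate numbers were taken to pair the arrays because the methods state 2 cultures and same-numbered deviations correlated at 0.37 (Gpc4 and TSP1), 0.29 (Gpc4 and Untreated) and 0.35 (TSP1 and Untreated).

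Of 31042 probe sets, 20826 have 1 symbol, 436 several and 9780 none. All markers had the same symbol in the RefSeq gene table of GRCr8. Named are all markers, the genes of the wider list and of the ligands past the threshold in any comparison or among the 3 largest differences in each, the genes past it in lists of other cells, and the 3 nearest genes of each marker that spans at least 0.58. The genes, lists and promoter motif were chosen with earlier results of these data known. Xist, Eif2s3y, RGC genes and genes named for low signal are outside that rule and were chosen after their values were seen. Alternatives were equal medians, quantile normalization, a mean of at least 6, the replicate block, a trended variance, the 2 groups alone, gene means, an adjusted p under 0.10 and each array left out; the other Aif1 probe set and no treatment term were added after seeing the data. Figures were drawn with matplotlib 3.10.9.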

Additional observations from a re-analysis of the deposited data

Results flagged for a closer look

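5 differences from Untreated had opposite signs in the 2 cultures, by at least 0.25 on the log2 scale in each, a size chosen after the data were seen. For Gpc4 minus Untreated, Tyrobp differed by 0.27 in culture 2 and -0.28 in culture 1, C1qa by 0.31 and -0.33, C1qb by 0.25 and -0.37, and Cd68 by 0.32 and -0.31. For TSP1 minus Untreated, the second Aif1 probe set (1368558_s_at) differed by -0.27 in culture 2 and 0.46 in culture 1. Each value rests on 1 array per condition, and the difference between the cultures was not tested. Groups of 2 or 3 arrays are too small for a search for single outlying arrays.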

How the results depend on the processing

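The counts of markers past the threshold in the 3 treatment comparisons were 0 under every alternative. With the replicate block they were 0, 0 and 0, and the lowest limma adjusted p of any marker was 0.276, for Gpr84 in Gpc4 against TSP1. Over all alternatives the lowest adjusted p was 0.676 for Gpc4 against Untreated, 0.377 for TSP1 against Untreated and 0.276 for Gpc4 against TSP1. The block moved the count over all probe sets to 64, against 26 without it, for Gpc4 against Untreated, to 4 against 0 for TSP1 against Untreated, and to 80 against 19 for Gpc4 against TSP1. The culture comparison has no block beside its own term. Its count of 3 markers became 5 with a trended variance, 6 with the mean over a gene's probe sets and 5 at an adjusted p under 0.10, and ranged from 0 to 0 when each array was left out. Its count over all probe sets, 174, became 264 with a trended variance, 284 at an adjusted p under 0.10 and 69 with no term for treatment. The markers' median culture difference of -0.53 became -0.99 among the 3 markers with a mean of at least 6, and ranged from -0.60 to -0.43 with each array left out. The median ranged from -0.26 to 0.34 for Gpc4 minus Untreated, from -0.26 to 0.64 for TSP1 minus Untreated and from -0.46 to 0.22 for Gpc4 minus TSP1; these fits have no block, so leaving out an array moves part of the culture difference into the treatment difference. The cause of these changes was not tested beyond the smaller number of arrays. No marker passed in one direction and changed sign. Dim signal limits all markers, and 2 cultures limit every comparison.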

Other observations

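Of the 40 probe sets lower in culture 2, 15 (37.5%) belong to the 10 markers or to the wider list, as do 5 (3.73%) of the 134 higher ones and 115 (0.37%) of all probe sets. These counts take every probe set of a listed gene. The 15 are 4 of markers and 11 of the wider list, against 3 and 9 genes lower by their main probe set. Of the wider list 4 genes were higher by it, so probe sets of some genes disagreed on the threshold. Among the lower genes not named so far, picked after their values were seen, were further genes known from macrophages. Adgre1, the F4/80 antigen of rodent macrophages, had log2 values of 6.76 with Gpc4, 7.10 with TSP1 and 7.15 untreated in culture 2, against 8.07, 8.32 and 8.24 in culture 1 (difference -1.21, limma adjusted p = 0.0015). Apoe, the lipid carrier that macrophages and astrocytes secrete, differed by -1.03 (limma adjusted p = 0.0016), Selenop, a selenium transport protein, by -0.95 (adjusted p = 0.0025) and Itgal, a leukocyte integrin chain, by -0.83 (adjusted p = 0.0050). The chemokine Ccl6 differed by -1.11 and the lectin Clec4a3 by -1.08. All 6 of these genes separated the cultures on all 6 arrays, as did 7.87% of all probe sets in this direction. They were picked among probe sets called lower in culture 2, so this adds no support. The lists were chosen with results of these data known, so the shares are descriptions, with no test.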
